A study of Mus musculus with 41 samples.

Results

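Expression of 10 genes of cell polarity and spindle orientation was compared across 41 mouse mammary tumors. The genes were taken by symbol, with no threshold on their values, and all 10 were found among the 47480 genes measured. They were the polarity scaffolds Pard3, Pard6a and Pard6b, the atypical protein kinase C genes Prkci and Prkcz, the Lgl gene Llgl2, the spindle orientation genes Gpsm2 and Numa1, and the fate determinants Numb and Numbl.

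The tumors fell into 2 genotypes on the balb/c strain, all of them lacking p53 and none of them treated. There were 28 tumors that also lacked Plk2 (Plk2-/-; p53-/-, hereafter Plk2-null) and 13 that lacked p53 alone (p53-/-, hereafter p53-null). Every tumor was grown in the mammary gland of a syngeneic host, and the Plk2-null tumors arose from mammary epithelial cells placed in cleared fat pads of wild-type recipients, so that each sample can hold host stroma. Claudin-low tumors, a mammary tumor class named for its low claudin expression, numbered 3 in the Plk2-null group (PLK2null-732, PLK2null-733 and PLK2null-743) and 1 in the p53-null group (T11), which left 25 and 12 other tumors. The class name is the study's. In the 3 Plk2-null tumors, the endothelial and pericyte marker sums given below exceeded the epithelial sum, which was not so in T11. The age of the hosts is not given in the labels. Which tumors are transplants of another tumor in the series is not given in the labels either, so p-values measure the spread between these tumors and may treat relatives as independent.

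In a polarised mammary epithelial cell, Pard3, a Pard6 protein and an atypical protein kinase C form the PAR complex at the apical side, and the kinase phosphorylates Llgl2 and Numb to keep them at the basolateral side. During mitosis, Gpsm2 (also called LGN) links cortical Gαi to Numa1, which recruits dynein and pulls on astral microtubules to set the axis of the spindle. Numb and Numbl are endocytic adaptors that hold back Notch signaling and can pass unequally to the daughter cells. Plk2, the kinase missing from the Plk2-null tumors, is a Polo-like kinase, and its loss is known to disturb polarity and spindle orientation in mammary epithelium.

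The 4 promoters printed here are those of 3 PAR complex genes and of Gpsm2, shown because the results on the claudin-low class turn on these genes. The sequences are from RefSeq on GRCm38.p6, each from 250 bases before to 50 bases after a transcription start, and capitals mark the E-box CACCTG or its reverse complement CAGGTG, letters that zinc-finger repressors of epithelial genes such as the Snail and Zeb families can bind.
Pard3, internal start, chr8:127299362-127299661, plus strand: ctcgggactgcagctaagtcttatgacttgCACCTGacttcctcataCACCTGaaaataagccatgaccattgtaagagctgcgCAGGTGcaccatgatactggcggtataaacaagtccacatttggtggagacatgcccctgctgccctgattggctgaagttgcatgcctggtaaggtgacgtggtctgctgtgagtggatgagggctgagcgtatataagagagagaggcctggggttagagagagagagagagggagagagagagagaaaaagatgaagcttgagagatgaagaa
Pard6b, chr2:168080754-168081053, plus strand: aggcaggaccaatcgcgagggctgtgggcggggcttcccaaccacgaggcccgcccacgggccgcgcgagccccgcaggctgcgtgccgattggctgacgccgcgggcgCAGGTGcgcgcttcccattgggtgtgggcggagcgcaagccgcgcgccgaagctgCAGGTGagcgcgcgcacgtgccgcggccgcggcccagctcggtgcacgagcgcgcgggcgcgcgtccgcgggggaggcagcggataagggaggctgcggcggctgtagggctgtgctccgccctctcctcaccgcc
Prkcz, upstream start, chr4:155361379-155361678, minus strand: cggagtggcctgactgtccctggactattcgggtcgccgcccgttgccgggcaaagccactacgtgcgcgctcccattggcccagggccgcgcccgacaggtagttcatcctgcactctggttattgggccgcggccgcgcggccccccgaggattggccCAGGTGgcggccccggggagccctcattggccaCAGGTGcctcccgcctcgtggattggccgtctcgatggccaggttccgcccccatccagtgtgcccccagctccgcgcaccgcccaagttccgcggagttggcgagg
Gpsm2, chr3:108722250-108722549, minus strand: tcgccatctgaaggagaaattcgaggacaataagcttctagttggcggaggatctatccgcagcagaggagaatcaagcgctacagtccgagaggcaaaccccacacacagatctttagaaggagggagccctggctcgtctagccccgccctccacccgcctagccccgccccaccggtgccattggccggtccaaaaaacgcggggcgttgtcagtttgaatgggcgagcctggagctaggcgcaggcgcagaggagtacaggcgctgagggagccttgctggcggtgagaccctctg
The Pard3 window held 3 E-boxes, at -220, -203 and -166 from the start, the Pard6b window held 2 at -141 and -86, the Prkcz window held 2 at -90 and -57, and the Gpsm2 window held none. In all, 9 of the 10 genes were listed with 15 promoters, and 6 of these promoters, from 5 genes, held the E-box on either strand. Among all 32851 promoters of this length the share was 20.2%, and it was 22.6% of genes. The E-box was looked for with results of these data known, and a match is a description of the letters only. The E-box genes not printed were Pard6a (at 38) and Numb (at -241). In the claudin-low comparison below, Pard3 and Pard6b were lower, Pard6a was higher, and Prkcz and Numb did not pass. Pard3, Prkcz, Pard6a and Numb each had another listed start without the E-box, and the windows of Prkci, Numbl and Numa1 held none. Prkci, Numa1 and Gpsm2, none of them with an E-box, were lower as well. Llgl2 was not among the genes matched.

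The values are estimated fragment counts per gene that the authors scaled so that each tumor has the same upper quartile, 1000. They are not adjusted for gene length, so levels of different genes are compared below only after division by the length of the longest coding transcript in kilobases. The depth implied by the smallest steps between values was 31910250 to 53244728 fragments (median 39053966) in the Plk2-null tumors. In the p53-null tumors it was 29409609 to 70868124 (median 58042777), so depth differed between the genotypes. No member was at or under 3 fragments in any tumor. Plk2 itself was 10.5-fold lower in the Plk2-null tumors (limma adjusted p = 1.30e-09), with a highest value of 553 there, although p53null-7435 at 186 lay inside the Plk2-null range. All p53-null titles carry the name ROSEN with a number, which no Plk2-null title carries. What this name marks is not given in the labels, and anything it marks cannot be told apart from genotype.

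Markers of other cell types moved with the claudin-low class and are given here because they stand beside every result on it. The summed value of 6 epithelial markers was 45.7 to 291 in the 3 Plk2-null claudin-low tumors and 13539 to 119162 in the other 25, and all 6 markers were lower. Cldn3 and Cldn7 are among the 6, and the study names their low expression for the class, which it drew from these same data. Their low values are therefore no separate result. The summed value of 6 endothelial markers was 165585 to 186496 against 2572 to 78025, and all 6 were higher, as were 6 of 6 pericyte markers and 6 of 6 T cell markers. Among the other lists, 3 of 6 fibroblast markers were lower, 1 of 6 macrophage markers was higher and 1 of 6 proliferation markers was lower. These calls are by limma at an adjusted p under 0.05, by which 20.2% of all genes were higher and 17.1% lower. The macrophage and proliferation calls are near those shares. T11 differed from these 3 tumors, with an endothelial sum of 6876, a pericyte sum of 9052 (88851 to 105609 in the 3), a T cell sum of 39.8 (1042 to 2036) and a fibroblast sum of 225122 (14888 to 56137). Its epithelial sum of 33742 came from Krt8 (11057) and Krt18 (22508), whereas Cdh1 (61.9), Epcam (81.4), Cldn3 (19.9) and Cldn7 (13.8) were low in it as in the 3 tumors, and of the 6 epithelial markers Krt8 and Krt18 passed the interaction test described below. Fewer cells of a type and less RNA per cell cannot be told apart in bulk samples, and the part of cell makeup in the results was not tested.

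Per kilobase, Numa1, the large nuclear and spindle pole protein, had the highest median level over the 41 tumors (941), followed by Prkci (582), Gpsm2 (495), Numb (343), Pard3 (291), Numbl (197), Llgl2 (179), Pard6b (128), Pard6a (97.3) and Prkcz (64.5). The top of this order was the steadiest. Numa1 exceeded Prkci in 38 of 41 tumors and Prkci exceeded Gpsm2 in 34, whereas Gpsm2 exceeded Numb in 25, Pard3 exceeded Numbl in 25 and Numbl exceeded Llgl2 in 24, so that the levels of these neighbours overlapped widely. Outside the claudin-low class, Numa1 and Pard6a varied least among the 10 genes, with SDs of 0.35 and 0.37 on the log2 scale over 37 tumors. Prkcz varied most, with an SD of 1.36. The median SD over all genes tested was 0.72.

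**Figure D1:**
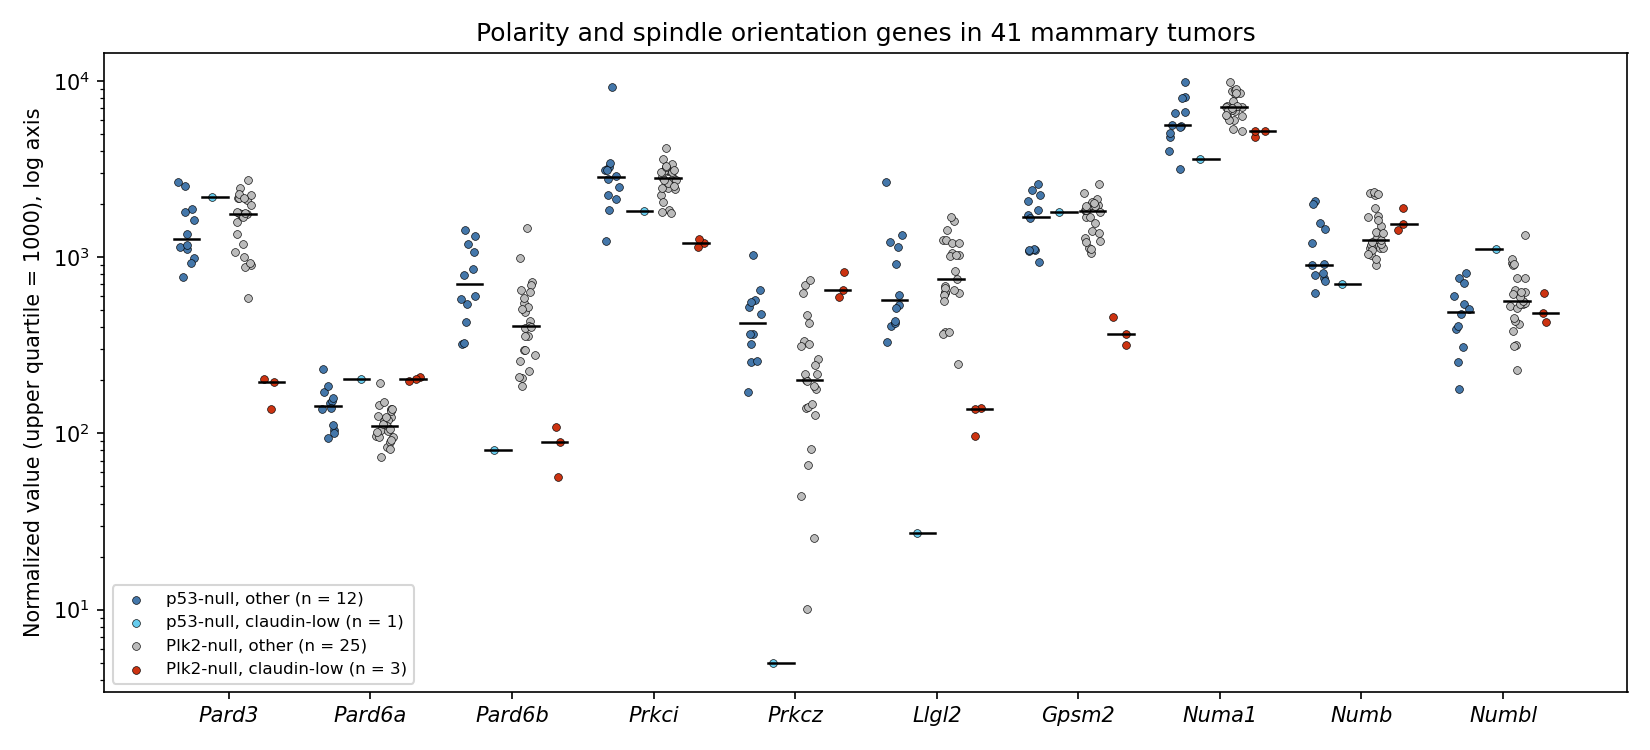
Normalized value (log axis) of each of the 10 genes in every tumor, by genotype and claudin-low class, with the median of each set as a bar. Pard3, Pard6b, Prkci, Llgl2, Gpsm2 and, narrowly, Numa1 in the 3 Plk2-null claudin-low tumors (red) lie below all 25 other Plk2-null tumors (grey). T11 (light blue) lies inside the range of the other p53-null tumors for Pard3, Prkci, Gpsm2 and Numa1. It lies below that range for Pard6b and Llgl2.

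The claudin-low class was compared with the other tumors within the Plk2-null genotype, 3 against 25. Of the 10 genes, 6 were lower in the claudin-low tumors (Pard3, Llgl2, Pard6b, Gpsm2, Prkci and Numa1), 1 was higher (Pard6a), and Prkcz, Numb and Numbl did not pass the test, which was limma with an adjusted p under 0.05 over 17153 genes. Over all genes, 37.3% passed, 17.1% as lower and 20.2% as higher. The median difference of the 10 genes was -0.84 on the log2(value + 1) scale, against 0.02 for all genes tested. The 3 claudin-low tumors did not overlap the other 25 for 7 of the 10 genes, being lower for 6 (8.87% of all genes) and higher for 1 (11.1% of all genes).

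Pard3, the scaffold that anchors the PAR complex at tight junctions, had the largest difference of the 10 genes. Its value was 137 in PLK2null-732, 197 in PLK2null-733 and 202 in PLK2null-743, whereas the other 25 Plk2-null tumors ran from 588 to 2719 with a median of 1753. All 3 claudin-low tumors were therefore below every other tumor of that genotype. The difference was -3.16 ± 0.33 (log2, SE), or 8.92-fold lower (limma adjusted p = 1.49e-08). The lowest of the 25, PLK2null-7763, was also the tumor with the lowest epithelial sum (13539) and the highest endothelial sum (78025) among them.

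The Pard6 genes, which encode the adaptors that hold the kinase to Pard3 and Cdc42, moved in opposite directions. Pard6b was at 56.9 in PLK2null-733, 89.8 in PLK2null-743 and 108 in PLK2null-732, below the range of 185 to 1455 (median 405) in the other 25. The difference was -2.36 ± 0.43 (adjusted p = 7.17e-05), or 5.12-fold lower. Pard6a, in contrast, was at 198, 202 and 208 in the claudin-low tumors and at 73.8 to 192 (median 111) in the other 25. It was 1.81-fold higher (0.86 ± 0.19, adjusted p = 0.000840) and its groups did not overlap, with PLK2null-1970 the nearest of the others. Per length, the ratio of Pard6b to Pard6a on the log2 scale was -3.22 to -2.36 in the 3 claudin-low tumors and -0.71 to 2.88 in the other 25, so Pard6a was the more abundant transcript in all 3 and in 7 of the 25.

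The atypical protein kinase C genes also differed from each other. Prkci, the kinase that predominates in most epithelia, was at 1137, 1200 and 1272 in the claudin-low tumors, all below the range of 1781 to 4129 (median 2798) in the other 25, a 2.26-fold lower level (-1.18 ± 0.19, adjusted p = 1.70e-05). Prkcz, its close paralog, was at 593, 647 and 822, where the others ran from 10.1 to 740 (median 202). PLK2null-733 was above all of the others, but PLK2null-732 and PLK2null-743 were inside their range, so the groups overlapped, and the difference of 1.92 ± 0.81 (95% interval 0.25 to 3.58) did not pass the test (adjusted p = 0.0645), although it did so with a pseudocount of 10 (adjusted p = 0.0489). Per length, the log2 ratio of Prkci to Prkcz was 0.42 to 0.73 in the 3 claudin-low tumors, below the range of 1.87 to 8.19 in the other 25. The coding sequences of the 2 kinases shared no run of 31 bases, and their longest identical run was catgtgtttgagcaggcgtcca, 22 bases, from base 907 of Prkci and base 904 of Prkcz, shown because reads of 50 bases had to be assigned between the paralogs.

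**Figure D2:**
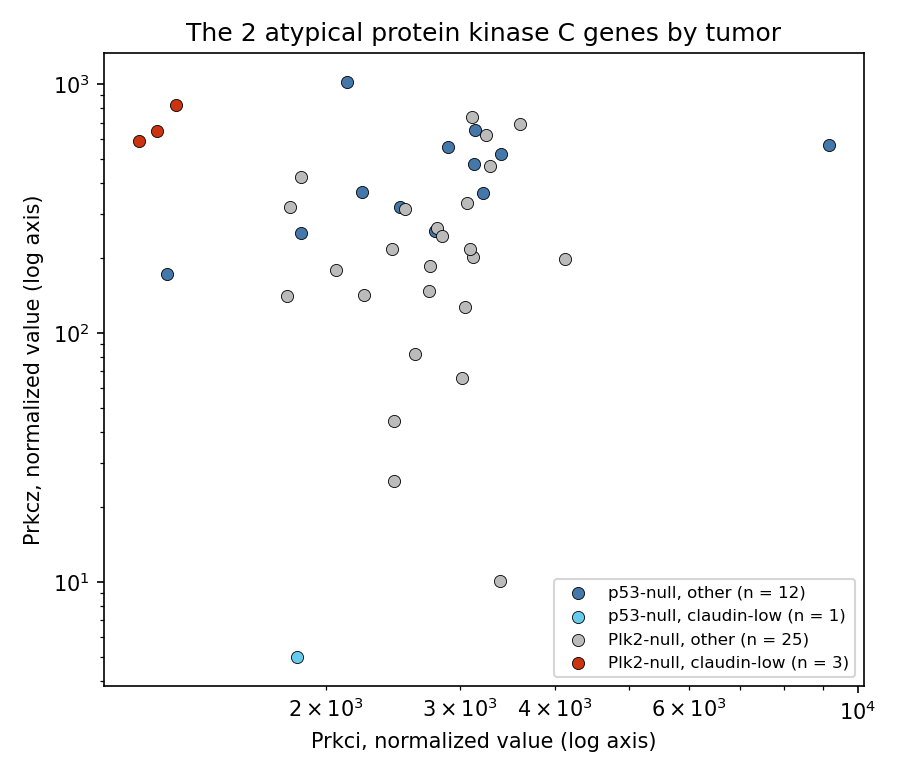
Normalized value of Prkci (horizontal, log axis) against that of Prkcz (vertical, log axis), each point being a tumor colored by genotype and claudin-low class. The 3 Plk2-null claudin-low tumors lie at 1137 to 1272 for Prkci and 593 to 822 for Prkcz, and T11 is the lowest point at 4.99 for Prkcz.

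Llgl2, a basolateral substrate of the kinase, was at 96.0, 137 and 139 in the claudin-low tumors and at 248 to 1690 (median 746) in the others, without overlap. It was 6.33-fold lower (-2.66 ± 0.42, adjusted p = 9.07e-06). As for Pard3, the lowest of the 25 was PLK2null-7763.

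Of the spindle orientation pair, Gpsm2 was at 315, 364 and 458 in the claudin-low tumors, whereas the others were at 1048 to 2597 (median 1826), so that even the highest claudin-low tumor was below the lowest of the rest. The difference was -2.15 ± 0.22, or 4.45-fold lower (adjusted p = 1.02e-08). Numa1 changed less, with 4767, 5199 and 5209 against 5210 to 9835 (median 7078). The groups just failed to overlap, with PLK2null-743 and PLK2null-1975 almost equal. Numa1 was 1.42-fold lower (-0.50 ± 0.16, adjusted p = 0.0119), and the call was lost without PLK2null-732 (adjusted p = 0.0761) or when only the 7 Plk2-null tumors that the study plots as primary tumors served as the others (adjusted p = 0.0789).

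Numb was at 1428, 1542 and 1899 in the claudin-low tumors, inside the range of 903 to 2330 (median 1250) of the others, and Numbl was at 429, 481 and 622, inside the range of 228 to 1341 (median 563). Neither difference passed the test. It was 0.22 for Numb (95% interval -0.29 to 0.73, adjusted p = 0.520) and -0.19 for Numbl (95% interval -0.88 to 0.51, adjusted p = 0.698). For the 7 genes without overlap, an exact two-sided permutation test of each gave p = 0.000611, the smallest that 3 against 25 tumors can give. This value follows from the lack of overlap, is the same for every gene without overlap, and adds no support of its own. Without PLK2null-7763 there were again 7 genes called.

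**Figure D3:**
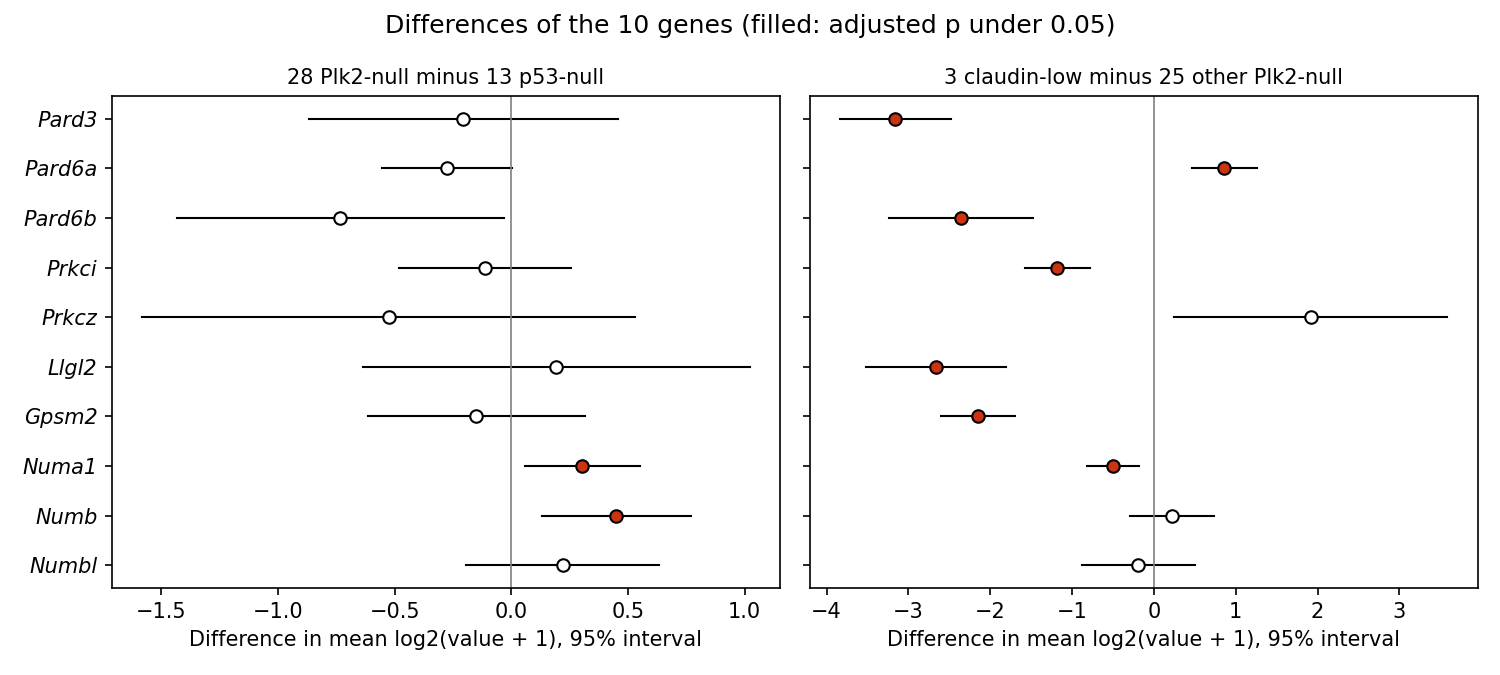
Difference in mean log2(value + 1) with its 95% interval for each of the 10 genes, 28 Plk2-null minus 13 p53-null tumors (left) and 3 claudin-low minus 25 other Plk2-null tumors (right), filled where the adjusted p is under 0.05. Filled points are Numb and Numa1 on the left, and on the right Pard6a above 0 and Pard3, Pard6b, Prkci, Llgl2, Gpsm2 and Numa1 below 0.

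T11, the claudin-low tumor of the p53-null genotype, lay on the same side of its companions as the Plk2-null claudin-low tumors for some genes. Pard6b was at 80.5 and Llgl2 at 27.3 in T11, each the lowest of the 13 p53-null tumors, where the other 12 were at 323 to 1433 and at 330 to 2673. Pard6a was at 203, inside the range of 94.2 to 232 of the other 12 and second only to p53null-5329. Prkci was at 1835 and Numa1 at 3580, each the second lowest of 13, -0.60 and -0.69 from the mean of the other 12 on the log2 scale. In other genes T11 stood elsewhere. Pard3 was at 2187, the third highest of 13, and Gpsm2 was at 1806, near the middle of a range of 944 to 2610. Prkcz was at 4.99, about 11.5 fragments and the lowest of all 41 tumors, where the other 12 were at 172 to 1021. Numbl was at 1118, the highest of the p53-null tumors.

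Whether T11 differed from its companions as the Plk2-null claudin-low tumors did from theirs was tested by the interaction of class with genotype, fitted over all 41 tumors. It passed for 3 of the 10 genes, against 9.97% of 17208 genes. The interaction was -3.81 for Pard3 (95% interval -5.16 to -2.47, adjusted p = 0.000215), 8.03 for Prkcz (5.13 to 10.93, adjusted p = 0.000274) and -2.36 for Gpsm2 (-3.39 to -1.34, adjusted p = 0.00185). For Pard3 the claudin-low difference was -3.16 in the Plk2-null genotype and 0.65 for T11 against the other 12 p53-null tumors, and for Gpsm2 it was -2.15 and 0.21. For Prkcz it was 1.92 and -6.11, the opposite order. The size of the Prkcz interaction depends on the low value of T11, and it was 6.64 with a pseudocount of 10. These tests rest on a single tumor in the p53-null arm, whose spread is assumed to equal that of the other groups, so they set T11 apart and do not show a difference between the genotypes. For Pard6b the interaction was 0.75 ± 0.87 (adjusted p = 0.658) and for Llgl2 it was 2.01 (0.17 to 3.84, adjusted p = 0.165), neither past the test. Leaving out each Plk2-null claudin-low tumor or PLK2null-7763 kept 3 calls.

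**Figure D4:**
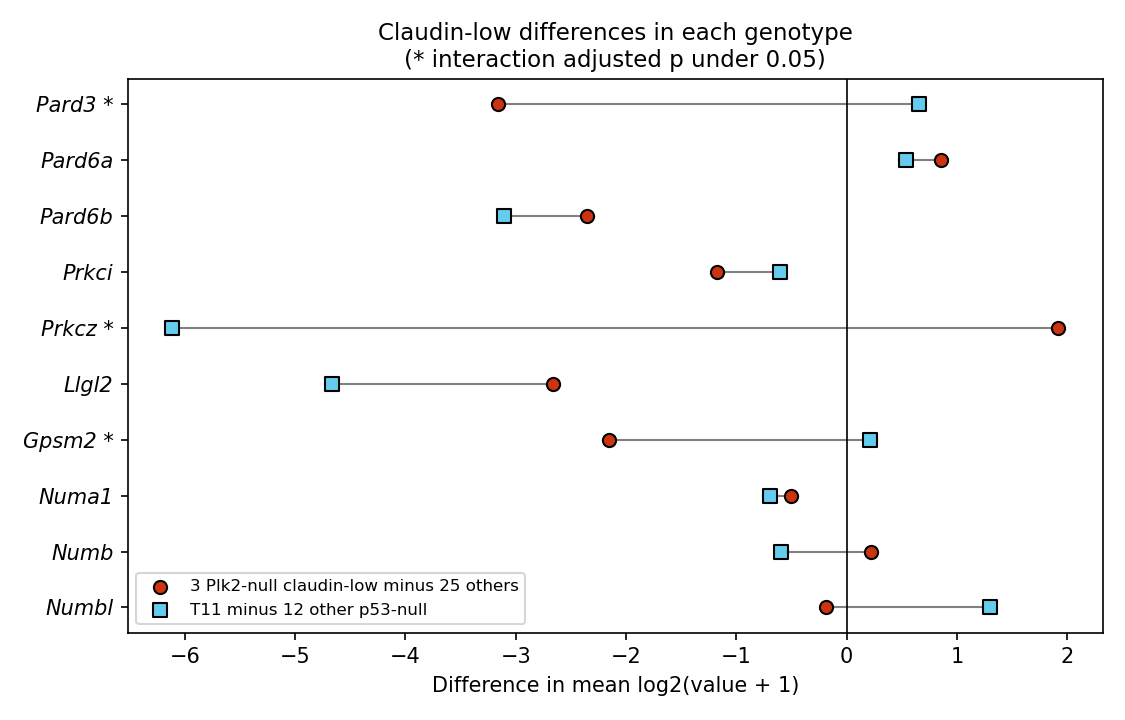
Difference in mean log2(value + 1) of the 3 claudin-low from the 25 other Plk2-null tumors (circles) and of T11 from the 12 other p53-null tumors (squares) for each gene, joined by a line. The symbols lie far apart for Pard3 (-3.16 and 0.65), Prkcz (1.92 and -6.11) and Gpsm2 (-2.15 and 0.21), the 3 genes marked for an interaction.

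The genotypes were compared next, 28 Plk2-null against 13 p53-null tumors, to ask whether the genes differ where Plk2 is missing. Numb and Numa1 were higher in the Plk2-null tumors and no member was lower, so 2 of 10 passed, against 39.5% of all 17208 genes (24.3% higher and 15.3% lower). Numb ran from 903 to 2330 (median 1320) in the Plk2-null tumors and from 626 to 2069 (median 899) in the p53-null tumors, a 1.37-fold difference (0.45 ± 0.16, adjusted p = 0.0216). Numa1 ran from 4767 to 9835 (median 6987) and from 3139 to 9804 (median 5575), a 1.23-fold difference (0.30 ± 0.12, adjusted p = 0.0440). The genotypes overlapped broadly for both genes. Neither call held under TMM rescaling, where Numb was 0.32 higher (adjusted p = 0.118) and Numa1 0.17 higher (adjusted p = 0.284), nor with the 7 primary Plk2-null tumors only, where Numb was 0.27 higher (adjusted p = 0.528) and Numa1 0.35 higher (adjusted p = 0.262). The Numb call was also lost without the 4 claudin-low tumors (0.38, adjusted p = 0.0670) and after quantile normalization (adjusted p = 0.0711), and the Numa1 call with no filter on low values (adjusted p = 0.0501). Under TMM the members called were instead Pard6a and Pard6b, so that the 2 higher and 0 lower became 0 higher and 2 lower, and quantile normalization gave 1 higher (Numa1) and 1 lower (Pard6b). The share of called genes that were higher was 61.4% as deposited, 47.6% after TMM and 50.7% after quantile normalization, and the median of all genes moved from 0.10 to -0.03 with TMM.

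The Pard6 genes had lower means in the Plk2-null tumors but did not pass, Pard6b at -0.73 ± 0.35 (adjusted p = 0.0895) and Pard6a at -0.27 ± 0.14 (adjusted p = 0.111). Pard6b had a median of 400 against 603 and Pard6a of 115 against 148. Both passed when the 4 claudin-low tumors were left out, at -0.72 (adjusted p = 0.0219) and -0.33 (adjusted p = 0.0326), when the class was a covariate (adjusted p = 0.0252 and 0.0340), and under TMM (adjusted p = 0.0459 and 0.0149). With the 7 primary tumors only neither passed, at -0.22 for Pard6b (adjusted p = 0.811) and -0.46 for Pard6a (adjusted p = 0.101), and Pard6a did not pass after quantile normalization (adjusted p = 0.0532). Prkcz was at -0.53 ± 0.52 (adjusted p = 0.449) and passed without the 4 claudin-low tumors, at -1.20 (adjusted p = 0.0221), but not with the class as a covariate (-0.52, adjusted p = 0.448) or under TMM (-0.65, adjusted p = 0.319). For the rest the intervals were -0.87 to 0.45 for Pard3, -0.48 to 0.26 for Prkci, -0.62 to 0.32 for Gpsm2, -0.64 to 1.02 for Llgl2 and -0.19 to 0.63 for Numbl, all on the log2 scale. The median of the 10 differences was -0.13, and that of all genes was 0.10.

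Within a genotype, several genes were high or low in sets of tumors. Prkcz was at 10.1 in PLK2null-1980, 25.5 in PLK2null-7764, 44.3 in PLK2null-1977 and 65.8 in PLK2null-1981, the 4 lowest Plk2-null values. It was at 470 in PLK2null-1963, 621 in PLK2null-7747, 691 in PLK2null-1965 and 740 in PLK2null-1964, the 4 highest of this genotype outside the claudin-low class. Numb was at 2240 in PLK2null-1984, 2271 in PLK2null-1986, 2307 in PLK2null-7750 and 2330 in PLK2null-1985, and the next highest tumor of the series, p53null-10152, was at 2069. In the same 4 tumors Pard6b was at 185 to 277. This was not particular to them, as PLK2null-1964 (225) and PLK2null-7763 (258) were inside that range and the claudin-low tumors were lower. Each of these sets of 4 held a tumor that the study plots as primary (PLK2null-7764, PLK2null-7747 or PLK2null-7750). Whether the tumors of a set are transplants of one another is not given in the labels, so they may not be independent. Prkci was at 9166 in p53null-7435, with the next highest tumor at 4129. This tumor also had the highest Numa1 value of its genotype, 9804.

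The wider polarity machinery was taken from 6 lists of 59 genes that hold no member, of which 56 passed the filter on low values (Crb1, Crb2 and Lin7b did not). In the claudin-low comparison 16 were higher, 16 were lower and 24 did not pass, beside 20.2% higher and 17.1% lower over all genes, with a median difference of 0.11. After TMM 11 were higher and 16 lower, and after quantile normalization 11 and 15, and no gene that was called changed its sign. The Crumbs complex, the apical partner of the PAR complex, had 3 lower and 1 higher of 5 tested. Crb3, its membrane anchor, was lower by -6.22 ± 0.42 (limma adjusted p = 2.35e-12) and the scaffold Patj by -4.21 ± 0.28 (adjusted p = 1.55e-12), whereas Lin7a was higher by 3.72 ± 1.07. Among 9 PAR complex partners, 5 were higher and 3 lower. Those included Pard3b (2.93 ± 0.96) and Pard6g (2.20 ± 0.81), paralogs of the Pard3 and Pard6 members, both higher, and the Rac activator Tiam1 (-3.83 ± 0.43) and the kinase Stk11 (-0.73 ± 0.22), both lower. Of 7 Scribble complex genes, Dlg3 was lower (-2.90 ± 0.18), Dlg2 was higher (1.78 ± 0.47) and 5 did not pass.

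Of 17 further spindle orientation genes, 4 were higher and 3 were lower, near the shares over all genes (20.2% higher and 17.1% lower). The same shares stand beside the counts of the lists that follow. Afdn (0.98 ± 0.21), the junctional actin binder, and Gnai2 (0.63 ± 0.20), a Gαi subunit that Gpsm2 binds, were higher (Gnai2 did not pass after TMM), and Sapcd2 (-1.85 ± 0.49), a Gpsm2 regulator, and Epb41 (-1.36 ± 0.23), a cortical cytoskeleton protein, were lower. Of 6 Numb partners, 3 were higher and 2 lower, and the ubiquitin ligases Lnx1 (-3.64 ± 0.48) and Lnx2 (1.38 ± 0.16), which target Numb, moved in opposite directions. The clathrin adaptor kinase Aak1 was lower (-1.13 ± 0.25) and the endocytic scaffold Eps15 higher (0.89 ± 0.25). Of 12 planar cell polarity genes, 2 were higher and 4 were lower, among them the cadherin Celsr2 (-3.92 ± 0.48) and the receptors Fzd3 (-2.22 ± 0.80) and Fzd6 (1.23 ± 0.30), the last of these higher, as was the Wnt signal transducer Dvl1 (0.67 ± 0.21), which did not pass after quantile normalization.

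**Figure D5:**
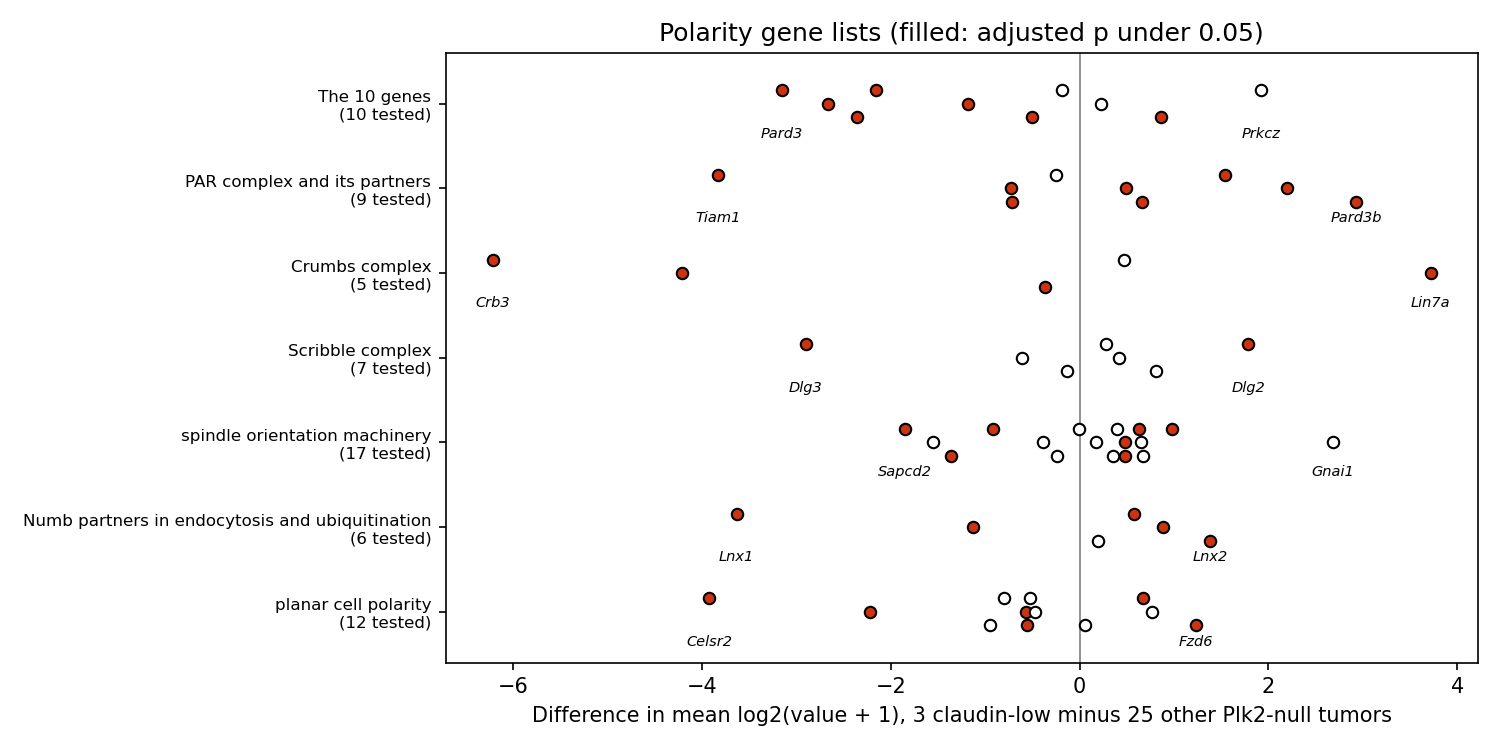
Difference in mean log2(value + 1) between 3 claudin-low and 25 other Plk2-null tumors for the 10 genes and for each gene tested of the 6 lists, filled where the adjusted p is under 0.05, with the lowest and highest gene of each list named. Values of the lists lie on both sides of 0, from -6.22 for Crb3 to 3.72 for Lin7a.

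Between genotypes, 13 of the 56 list genes were higher in the Plk2-null tumors and 2 were lower, beside 24.3% higher and 15.3% lower over all genes, with a median of 0.09. After TMM these counts were 10 and 6, with Dlg4 and Itch no longer called, and after quantile normalization 13 and 3, with Cdc42 and Celsr3 no longer called. The higher genes included Aak1 (1.63 ± 0.20, limma adjusted p = 1.05e-08), Dvl3 (1.22 ± 0.15, adjusted p = 1.17e-08), a planar polarity transducer, the cadherin Celsr3 (1.05 ± 0.25), Epb41l2 (0.82 ± 0.17), the scaffolds Dlg4 (0.72 ± 0.28) and Dlg5 (0.70 ± 0.18), the Gpsm2 paralog Gpsm1 (0.65 ± 0.19) and the Numb-binding ligase Itch (0.36 ± 0.10). The small GTPase Cdc42, which binds Pard6 proteins, was lower (-0.43 ± 0.18, adjusted p = 0.0489), as was Fzd3 (-1.12 ± 0.42, adjusted p = 0.0295).

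For each gene called in the claudin-low comparison, the genes whose pattern was most like it over the 41 tumors were found by Pearson correlation of log2 values, given here as a description of points that share libraries. Pard3 was most like Rin2 (r = 0.90, and 0.74 over the 37 tumors outside the claudin-low class), Pard6b most like Rassf7 (0.85 and 0.68), Prkci most like Aim1 (0.78 and 0.67), Llgl2 most like Tmem102 (0.89 and 0.69) and Gpsm2 most like Ssx2ip (0.87 and 0.66). Pard6a was most like Thap11 (0.79 and 0.73) and Numa1 most like C2cd3 (0.81 and 0.82). Thap11 starts 0.154 Mb from Pard6a on chromosome 8, and C2cd3 starts 1.56 Mb from Numa1 on chromosome 7. The next most like genes of these 2 members, Zdhhc7 and Palb2, were on the same chromosomes as well, 14.4 and 20.2 Mb away. The genes next to Gpsm2 in likeness, Ssx2ip and Syde2, were also on its chromosome 3, 37.7 and 37.3 Mb away. For Llgl2, Tmem102 was on its chromosome 11, 46.0 Mb away, but the next gene, Rbm47, was on chromosome 5. Those of Pard3 were on other chromosomes, as were Rassf7 for Pard6b and Cd24a for Prkci. How often such genes share a chromosome over all genes was not determined.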

How the data were processed

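RNA from 41 tumors was sequenced as paired reads of 50 bases after Illumina TruSeq mRNA preparation. Per the labels, the authors used STAR 2.7.6a, Salmon 1.4.0, SAMtools and Picard 2.22.4 on mm10. The deposited signal values are Salmon gene estimates that the authors scaled to an upper quartile of 1000, on a linear scale. Only 77.9% to 80.5% of values were within 0.1 of a whole number of reads, so no count model was used. Implied depth was 29409609 to 70868124 fragments per tumor. Genotype came from the strain label. The claudin-low class came from the study's text and subtype clustering.

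Differences on the log2(value + 1) scale were tested by limma (version 3.58.1, R 4.3.3), on genes with a mean of at least 10 over the tumors compared, with Benjamini-Hochberg adjustment over all genes tested, so fold changes are on that scale and understate those of low genes. Single genes were also tested by permutation, exact for 3 against 25 and with 100000 resamples for genotype. The fits were tested on simulated data with independent tumors, which does not bear on related tumors. The check of direction there covered the genotype and claudin-low fits and left out the interaction. All 10 members were reported, and list genes were named as the 2 called genes of largest difference per list and direction. Marker and polarity lists, members and motif were chosen with earlier results of these data known. The alternatives were pseudocount 10, no filter, a mean of at least 100, limma's trend, TMM (computed in R), quantile normalization, and leaving out tumors. Symbols were matched to GENCODE vM21, 45213 of 47480 of them. Table symbols Inadl, Mllt4, Ric8 and Mpp5 were read as Patj, Afdn, Ric8a and Pals1. Exons of Gpsm2, Numa1 and Numb overlap opposite-strand genes (Clcc1, Il18bp and Gm46367) and those of Numbl overlap Gm44641, and whether quantification used strand is not given in the sources used here.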

Additional observations from a re-analysis of the deposited data

Results flagged for a closer look

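Genes were tested within sets of 4 to 10 tumors for a value far from the rest, and 3 of 20 such tests found one. The tests share tumors, and T11 is the only p53-null tumor in its set. This count therefore cannot be set against a chance rate. The T11 values below also enter the interaction given next, so they are no separate result. Within the 4 claudin-low tumors of both genotypes, T11 stood apart for Pard3, at 2187, and for Gpsm2, at 1806. Within the 7 primary Plk2-null tumors, PLK2null-7750 stood apart for Numb, at 2307.

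For 3 members, T11 differed from the other p53-null tumors otherwise than the Plk2-null claudin-low tumors did from theirs, by limma's test of the interaction. The difference between the differences was -3.81 for Pard3, 8.03 for Prkcz and -2.36 for Gpsm2 on the log2 scale, each resting on T11 alone in the p53-null arm, so that no difference between the genotypes is shown. Summed markers of endothelium, pericytes, T cells and fibroblasts, and Krt8 and Krt18 among the epithelial markers, also differed between T11 and the 3 Plk2-null claudin-low tumors, and their part in these values was not tested.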

How the results depend on the processing

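The number of members called between genotypes, 2, became 1 with no filter and 4 without the 4 claudin-low tumors. It was 4 with the class as a covariate and 0 with the 7 primary tumors only. Over all genes, 6802 of 17208 were called in the fit reported above and 9053 of 33691 with no filter. Those called were 7244 of 17080 without the claudin-low tumors, 7383 of 17208 with the covariate and 2942 of 17050 with the primary tumors. In neither fit with 4 members called was their share above that of all genes. The numbers of members called in the claudin-low comparison (7) and in the interaction (3) moved by less than 1.5 times under every alternative run. Leaving out each claudin-low tumor gave 6 to 7 members called and 4527 to 4629 genes (6391 with all 3), and in the interaction, chosen after seeing the data, 3 members and 1235 to 1291 genes (1715 with all 3). Directions reversed between genotypes for Pard3 (0.18) and Gpsm2 (0.10) without the claudin-low tumors and for Prkci (0.034) without p53null-7435, in the claudin-low comparison for Prkcz (-0.14) and Numbl (0.19) with all 41 tumors, and in the interaction for Pard6a (-0.059) with quantile normalization. None of these 6 was called in either fit, and the cause was not tested. Among the single-gene results, 314 of 340 kept their direction and call. The share of called genes that were higher in the interaction was 65.6% as deposited, 58.0% after TMM and 55.8% after quantile normalization, and the median of all genes there moved from 0.19 to 0.01 and -0.07. The members were above 3 fragments in all 41 tumors, and the precision of the claudin-low results is set by 3 tumors and T11.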
